A study of Homo sapiens with 6 samples.

Results

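The 50 genes described here encode SR proteins and the SR-like TRA2 proteins (12 genes), hnRNPs including the poly-C-binding and polypyrimidine-tract-binding proteins (24), the kinases of SR proteins (6), proteins of the 3' splice site (3) and other splicing regulators (5). They were taken by symbol from the 35840 genes of the table, through the Ensembl IDs that the GENCODE annotation of GRCh38 pairs with each symbol. The list of symbols was chosen with earlier results of these data known. The RNA came from Huh-7, a human hepatocellular carcinoma line, exposed to 20 mM metformin for 48 h (metformin group, 3 libraries, replicates 1 to 3) or to no metformin over the same 48 h (control group, 3 libraries, replicates 4 to 6). Metformin is a biguanide prescribed for type 2 diabetes that inhibits complex I of mitochondria. All cells of both groups grew in low-glucose medium with serum and were starved before the agent was added. The dose is that of the sample titles and of the sequencing methods, and the study gives another dose elsewhere. Polyadenylated RNA was sequenced. Only this line was used. Whether the 3 libraries in each group represent separate cultures is stated neither in the labels nor in the methods, so that p-values measure a spread that may be technical.

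Removal of introns depends on proteins that mark exons and introns on the nascent transcript. SR proteins bind exonic enhancers with RNA recognition motifs and contact the spliceosome through a domain rich in arginine and serine, whereas many hnRNPs bind silencers and oppose the use of nearby splice sites. SRPK kinases in the cytoplasm and CLK kinases in the nucleus phosphorylate the serines of that domain, which sets where SR proteins reside and whether they are active. Many of these genes control their own mRNA through exons or retained introns that send the transcript to nonsense-mediated decay or hold it in the nucleus.

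Expression was given as FPKM, fragments scaled by exon length and by the fragments of the library. The length is that of merged annotated exons, from 1750 bases for PCBP1 to 22512 bases for HNRNPU among the members. Levels, ranks, sums and ratios between genes are therefore approximate, while the change of 1 gene between groups does not depend on this length. The libraries held 17192221 to 18464783 fragments, and 22456 to 23237 genes were above 0 with metformin against 24860 to 25163 in control. Genes averaging 1 FPKM or more in the metformin or the control libraries (13094) were tested with limma on log2(FPKM + 1), a scale on which the change of low genes is understated. A gene was called higher or lower in the metformin group at a Benjamini-Hochberg adjusted p under 0.05 over all these genes, and was a DEG when its absolute log2 fold change was also above 1. Across all genes the median log2 fold change was -0.14, and it was 0.02 with TMM factors, with which 4895 genes were higher and 4661 lower in place of 3784 and 5781. Quantile normalization gave 4607 and 4547, and scaling by the median of ratios gave 4780 and 4761. Of 10 hepatocyte markers all were expressed, with a summed level of 1431 to 1572 FPKM with metformin and 2419 to 2522 FPKM in control, and 6 of them were lower and 2 higher, AFP at 134 FPKM with metformin against 605 FPKM in control and HNF4A at 28.8 FPKM with metformin against 31.2 FPKM in control. Of the blood cell markers, CD14 was at 8.23 FPKM with metformin against 26.8 FPKM in control and PTPRC and CD3E were at no more than 0.0341 FPKM on average, with CD3E listed at 0 in all metformin libraries. Summed fibroblast markers were at 2.78 to 4.68 FPKM with metformin and 6.28 to 7.21 FPKM in control, and endothelial markers at 0.352 to 0.45 FPKM with metformin and 0.30 to 0.49 FPKM in control, with CDH5 listed at 0 in all metformin libraries. The part of the changes in these markers in the results below was not tested.

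Most splicing regulators were lower after metformin, while kinases of the CLK family moved mainly the other way. Of the 50 genes 49 were tested, and 27 (55.1%) were lower, against 44.1% of all genes tested, while 11 (22.4%) were higher, against 28.9%. The other 11 did not pass the test. Among the 27 were 10 downregulated DEGs (20.4%, against 10.7% of all genes): SRSF1, SRSF5, SRSF6, SRSF10, TRA2A, TRA2B, HNRNPA2B1, HNRNPA3, HNRNPH2 and HNRNPM. With TMM and median-of-ratios factors 8 of them were DEGs, as SRSF10 (log2 fold change -0.93 and -0.95) and TRA2B (-0.93 and -0.94) were no longer past the fold threshold. With a pseudocount of 0.1 and with voom all 10 stayed past it, and SRSF2 (-1.01 in both) joined them. Of all genes, 2422 of 13094 and 3618 of 15670 were then downregulated DEGs. The median control level was 33.4 FPKM for the members and 5.89 FPKM for all genes tested. The excess of DEGs over all genes thus depends on how low genes are treated. The upregulated DEGs were CLK1 and CLK3 (4.08%, against 4.88%). Values of the metformin and control libraries did not overlap for 42 of the 49 (85.7%), which was so for 76.7% of all genes tested. The median log2 fold change of the 49 was -0.51, and -0.34 with TMM factors. In bulk RNA, fewer cells of a kind and less RNA per cell cannot be told apart, and a gene-level FPKM does not separate productive transcripts from those with poison exons or retained introns.

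**Figure D1:**
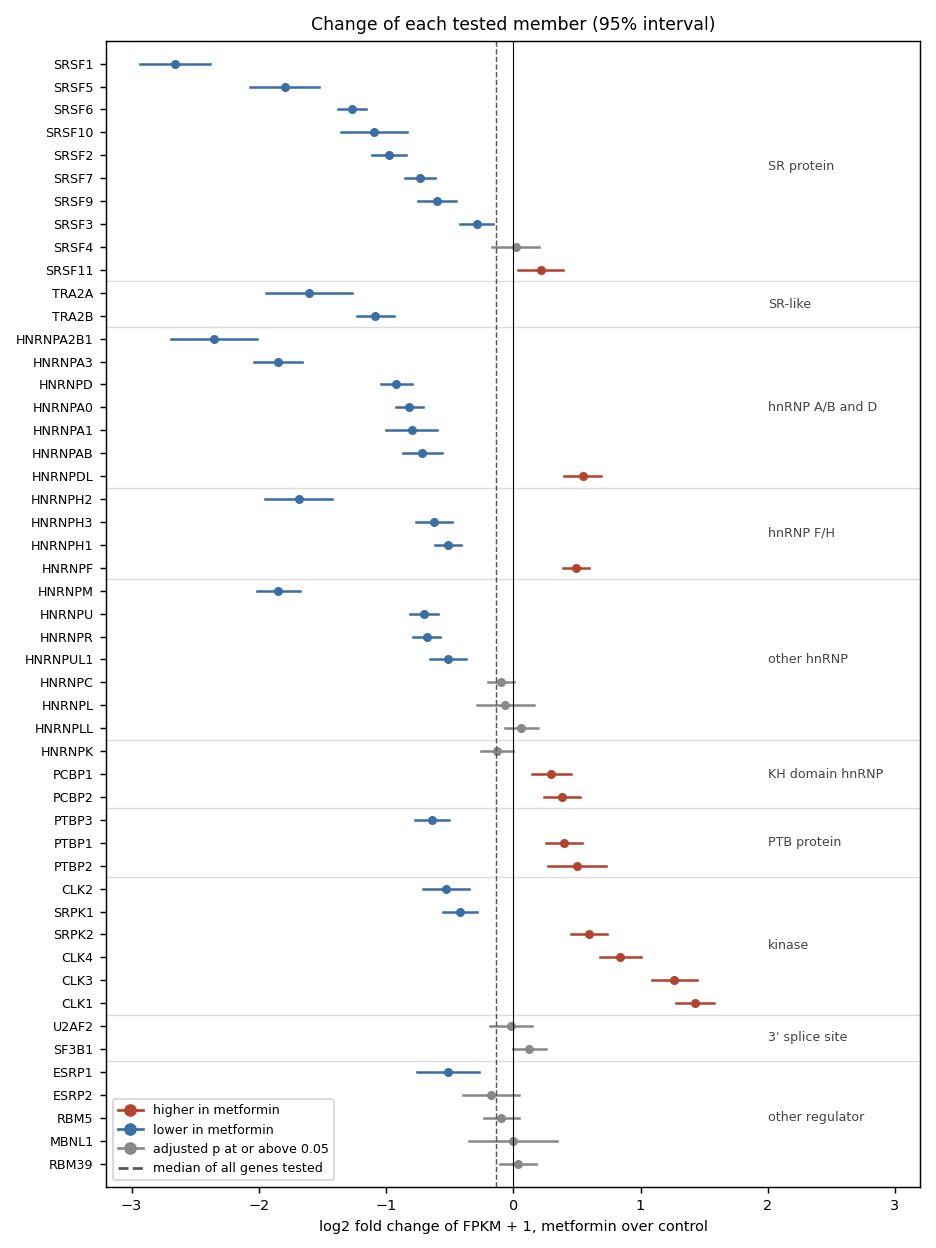
Log2 fold change of FPKM + 1 (metformin over control, x axis) of the 49 genes tested, grouped by class (y axis), with the 95% interval from limma as a bar, colored by call. SRSF1 at -2.66 and HNRNPA2B1 at -2.35 lie farthest to the left, and CLK1 at 1.43 and CLK3 at 1.26 farthest to the right.

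SR proteins and TRA2 proteins fell in 10 of 12 genes (83.3%, against 44.1% of all genes tested), 6 of them as DEGs (50%, against 10.7%). Their median log2 fold change was -1.03. With TMM factors 9 were lower with a median of -0.87, and 4661 of all 13039 genes tested were lower. SRSF1 (GRCh38, chr17:58000919-58007346), the prototype SR protein, which binds purine-rich exonic enhancers, was at 9.65, 10.2 and 13.7 FPKM in the metformin libraries, against 72.4, 76.2 and 77.8 FPKM in the control libraries. Every metformin library was thus far below every control library, and the mean was 6.74-fold lower (11.2 ± 2.19 FPKM with metformin and 75.5 ± 2.78 FPKM in control; SD, n = 3 each; limma, log2 fold change -2.66, SE 0.117, adjusted p = 3.15e-06). SRSF1 had the highest level of the 12 SR and TRA2 genes in control and ranked 7 of 12 with metformin. SRSF5, a regulator related to SRSF4 and SRSF6, was at 5.16, 7.58 and 6.31 FPKM in the metformin libraries, against 23.7, 24.2 and 25.1 FPKM in the control libraries, a 3.83-fold lower mean with no overlap (log2 fold change -1.80, SE 0.114, adjusted p = 1.10e-05 from limma). SRSF6, an SR protein with a long arginine-serine domain, was at 22.9, 22.4 and 23.2 FPKM in the metformin libraries, against 54.2, 57.8 and 57.3 FPKM in the control libraries (log2 fold change -1.27, adjusted p = 2.16e-06), with an SD of 0.375 FPKM among the metformin libraries. SRSF10, which represses splicing when it is dephosphorylated, was at 8.79, 9.65 and 12.1 FPKM in the metformin libraries, against 21.9, 21.8 and 24.5 FPKM in the control libraries (log2 fold change -1.09, adjusted p = 8.88e-05). The TRA2 proteins, homologs of the fly sex determination factor transformer-2, fell as well. TRA2A was at 7.08, 11 and 9.8 FPKM with metformin, against 27.6, 29.8 and 32.7 FPKM in control (log2 fold change -1.60, adjusted p = 5.05e-05), and TRA2B was at 6.27, 6.39 and 7.02 FPKM with metformin, against 14.9, 15.6 and 14.6 FPKM in control (log2 fold change -1.09, adjusted p = 7.30e-06).

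A smaller fall was measured for the other SR proteins, and SRSF4 and SRSF11 stood apart from it. SRSF2, also called SC35 and a marker of nuclear speckles, was at 21.3, 19.5 and 22 FPKM with metformin, against 42.7, 41.2 and 42.5 FPKM in control (log2 fold change -0.98, adjusted p = 7.93e-06), although MFSD11 on the other strand shares 27.7% of its exon bases. SRSF7, which carries a zinc knuckle, was at 22.8, 22.8 and 23.7 FPKM with metformin, against 39.1, 37.6 and 40.5 FPKM in control (log2 fold change -0.73, adjusted p = 1.38e-05). SRSF9, a paralog of SRSF1 with a short arginine-serine domain, was at 3.6, 3.34 and 3.66 FPKM with metformin, against 6.07, 5.9 and 5.62 FPKM in control (log2 fold change -0.60, adjusted p = 0.0001), and it shares 43.6% of its exon bases with GATC on the other strand (2.96 FPKM with metformin, 3.56 FPKM in control). For these genes every metformin library lay below every control library, while the groups did not overlap for 76.7% of all genes tested. SRSF3, the smallest SR protein, which also takes part in mRNA export, was at 41.6, 37.3 and 39.8 FPKM with metformin, against 47, 49.5 and 48.9 FPKM in control (log2 fold change -0.29, adjusted p = 0.0023), and this call was lost when libraries were scaled with TMM (adjusted p = 0.111) or by the median of ratios (adjusted p = 0.0824). SRSF4 was at 10.3, 11.1 and 12.6 FPKM with metformin, against 11.4, 11.3 and 10.7 FPKM in control, overlapping groups with a log2 fold change of 0.02 (95% interval -0.17 to 0.20, adjusted p = 0.848 from limma). SRSF11, an SR-related protein also called p54, was at 30.3, 31.7 and 35.4 FPKM with metformin, against 25.9, 27.9 and 29.7 FPKM in control and was the only SR gene called higher (log2 fold change 0.21, adjusted p = 0.0356). Its call was lost with no filter on low values (adjusted p = 0.0754) and when metformin replicate 2 (0.0667), metformin replicate 3 (0.0924), control replicate 4 (0.108) or control replicate 5 (0.0816) was left out. Over the 10 SR proteins alone 8 were lower, 1 was higher and 1 did not pass. The summed level of the 12 genes was 197 ± 10.5 FPKM with metformin and 399 ± 11.5 FPKM in control (SD, n = 3 each). SRSF3 and SRSF11 had the highest means among them with metformin, ranks that SRSF1 and SRSF6 held in control.

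**Figure D2:**
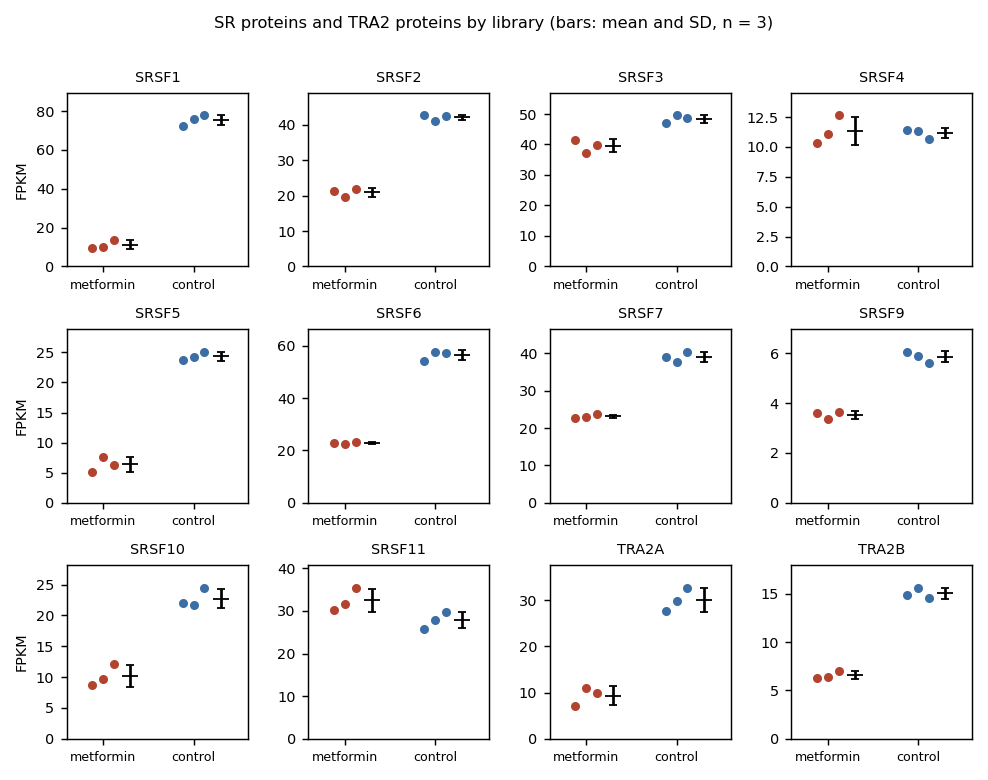
FPKM (y axis, from 0) of the 10 SR genes and both TRA2 genes in each metformin and control library (points), with mean and SD (n = 3) beside them. SRSF1 lay between 9.65 and 13.7 FPKM with metformin and between 72.4 and 77.8 FPKM in control, while the groups of SRSF4 overlap.

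The SR genes are recognized by repeats of arginine and serine codons, which encode the domain whose serines their kinases phosphorylate. The coding sequences of 3 of them show how much these repeats differ. The stretches of 120 bases are the 40 codons with the most adjacent arginine and serine codon pairs (either order) in the GENCODE canonical coding sequence of GRCh38, 5′ to 3′, with the codons of such pairs in capitals. SRSF1, codons 193 to 232, holds 22 pairs, SRSF5, codons 184 to 223, holds 31, and SRSF9, codons 170 to 209, holds 8.
SRSF1: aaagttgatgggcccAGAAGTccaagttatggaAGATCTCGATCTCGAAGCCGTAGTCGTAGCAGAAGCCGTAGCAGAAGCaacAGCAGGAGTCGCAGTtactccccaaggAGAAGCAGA
SRSF5: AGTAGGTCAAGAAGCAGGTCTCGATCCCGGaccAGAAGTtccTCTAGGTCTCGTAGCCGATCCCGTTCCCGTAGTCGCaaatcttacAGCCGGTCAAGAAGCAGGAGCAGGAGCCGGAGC
SRSF9: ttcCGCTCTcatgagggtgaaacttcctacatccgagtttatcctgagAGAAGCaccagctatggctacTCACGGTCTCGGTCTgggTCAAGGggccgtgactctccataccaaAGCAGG
Over whole coding sequences the pairs per 100 codons were 12.5 for SRSF1 (31 pairs in 248 codons), 19.1 for SRSF5 (52 in 272) and 4.07 for SRSF9 (9 in 221). SRSF4 had the most pairs (113 in 494 codons, or 22.9 per 100) and SRSF2 the densest (23.5 per 100), while SRSF11 had 8.26 per 100. The paralogs SRSF1 and SRSF9 changed by unequal amounts, with an SRSF1 to SRSF9 ratio of 3.17 ± 0.538 with metformin and 12.9 ± 0.952 in control (SD, n = 3 each). A relation between the repeats and the change was not tested. SRSF4 and SRSF2, both rich in pairs, had log2 fold changes of 0.02 and -0.98.

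In the hnRNP A/B and D family 6 of 7 genes fell (85.7%, against 44.1% of all genes tested) and 1 rose (14.3%, against 28.9%), with a median log2 fold change of -0.82. HNRNPA2B1 (GRCh38, chr7:26171151-26201529), which binds splicing silencers and is an abundant nuclear protein, was at 30.6, 42.5 and 47.9 FPKM in the metformin libraries, against 208, 207 and 206 FPKM in the control libraries. This was a 5.13-fold lower mean (40.3 ± 8.83 FPKM with metformin and 207 ± 1.11 FPKM in control; SD, n = 3 each; limma, log2 fold change -2.35, SE 0.144, adjusted p = 9.67e-06), with more spread among the metformin libraries than among the control libraries. HNRNPA3, a close relative, was at 32.6, 40.2 and 33.4 FPKM in the metformin libraries, against 126, 130.5 and 133 FPKM in the control libraries (log2 fold change -1.85, adjusted p = 3.18e-06), and 9 copies of it above 0 summed to 2.32 FPKM with metformin and 4.88 FPKM in control. NFE2L2 on the other strand shares 53.6% of the exon bases of HNRNPA3 and was at 77.0 FPKM with metformin against 57.1 FPKM in control, and since no source states that strand was used in the counting, their reads cannot be told apart. HNRNPA1, the best-studied silencer-binding hnRNP and the highest of the 24 genes in both groups, was at 186, 154 and 151 FPKM in the metformin libraries, against 269, 293 and 292 FPKM in the control libraries (log2 fold change -0.80, adjusted p = 0.00011). Its 30 copies and relatives with HNRNPA1 symbols above 0 summed to 14.5 FPKM with metformin and 26.6 FPKM in control, so that its value is uncertain by how reads were split among them. HNRNPD, known as AUF1 and a binder of AU-rich elements, was at 23.3, 21.9 and 21.4 FPKM with metformin, against 42.1, 44.4 and 42 FPKM in control (log2 fold change -0.92, adjusted p = 7.59e-06). HNRNPA0 was at 22.8, 23.3 and 23.1 FPKM with metformin, against 40.9, 42.4 and 40.8 FPKM in control (log2 fold change -0.82, adjusted p = 6.44e-06) and HNRNPAB at 92.9, 80.6 and 86.9 FPKM with metformin, against 148, 146 and 135 FPKM in control (log2 fold change -0.72, adjusted p = 5.25e-05). HNRNPDL, the paralog of HNRNPD, was the exception among these 7 genes, at 91.8, 82.9 and 79.8 FPKM with metformin, against 57.2, 59.6 and 56.4 FPKM in control and higher in every metformin library (log2 fold change 0.54, adjusted p = 0.000155). The HNRNPD to HNRNPDL ratio was 0.262 ± 0.00799 with metformin and 0.742 ± 0.00484 in control.

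The G-run-binding F/H family was split. HNRNPH2, encoded on the X chromosome, was at 10.9, 14 and 9.99 FPKM in the metformin libraries, against 37.4, 40.2 and 40.3 FPKM in the control libraries (log2 fold change -1.69, adjusted p = 1.33e-05), a 3.38-fold lower mean. HNRNPH1, its more abundant paralog, was at 72.1, 71.1 and 73.9 FPKM with metformin, against 104, 101 and 106 FPKM in control (log2 fold change -0.51, adjusted p = 3.69e-05), and HNRNPH3 at 20.8, 19.3 and 21.2 FPKM with metformin, against 30.3, 32.1 and 33.5 FPKM in control (log2 fold change -0.62, adjusted p = 7.47e-05). HNRNPF, in contrast, was at 102, 101 and 98.4 FPKM with metformin, against 71.1, 72.7 and 69.7 FPKM in control and was higher in every metformin library (log2 fold change 0.49, adjusted p = 4.15e-05). With these shifts HNRNPF was above HNRNPH1 in all metformin libraries and below it in all control libraries, the ratio being 1.39 ± 0.0521 with metformin and 0.686 ± 0.0314 in control.

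Of the other hnRNPs HNRNPM, which binds GU-rich sequence, had the largest change, at 14.7, 12.7 and 13.8 FPKM in the metformin libraries, against 48.4, 54.2 and 53.1 FPKM in the control libraries, a 3.78-fold lower mean (limma, log2 fold change -1.85, SE 0.0709, adjusted p = 2.16e-06). HNRNPU, the scaffold attachment factor A, was at 28.2, 30.1 and 29.2 FPKM with metformin, against 47.7, 48.8 and 48 FPKM in control (log2 fold change -0.70, adjusted p = 1.31e-05). HNRNPR, a relative of SYNCRIP, was at 20.5, 20.2 and 20.3 FPKM with metformin, against 33.4, 32.4 and 33.8 FPKM in control (log2 fold change -0.68, adjusted p = 1.32e-05), and HNRNPUL1 at 49.8, 46.6 and 47.8 FPKM with metformin, against 72, 71 and 63.8 FPKM in control (log2 fold change -0.51, adjusted p = 0.000191). These 4 genes had no overlap between groups, which was so for 76.7% of all genes tested. HNRNPC, which binds U tracts and keeps Alu elements out of mRNA, was at 98.7, 95.4 and 92.6 FPKM with metformin, against 101, 103 and 103 FPKM in control and did not pass (log2 fold change -0.10, adjusted p = 0.0816), with 4 copies above 0 that summed to 18 FPKM with metformin and 14.5 FPKM in control. HNRNPL, a binder of CA repeats, was at 30.2, 29.1 and 28.4 FPKM with metformin, against 34, 26.1 and 32.2 FPKM in control (95% interval -0.29 to 0.16, adjusted p = 0.565), and its paralog HNRNPLL at 7.01, 7.09 and 6.83 FPKM with metformin, against 6.48, 6.52 and 6.91 FPKM in control (adjusted p = 0.335), neither past the test, although HNRNPLL was called higher with TMM factors (log2 fold change 0.21) and by the median of ratios (0.20).

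Of the poly-C-binding and polypyrimidine-tract-binding proteins 4 of 6 were higher and 1 was lower, against 28.9% higher and 44.1% lower among all genes tested. HNRNPK was at 139, 134 and 126 FPKM with metformin, against 139, 148 and 150.2 FPKM in control and did not pass (limma, log2 fold change -0.13, adjusted p = 0.0564). PCBP1, an intronless gene, was at 34.1, 32 and 30.1 FPKM with metformin, against 27.3, 25.2 and 25 FPKM in control (log2 fold change 0.30, adjusted p = 0.00388), and 73.2% of its exon bases lie opposite PCBP1-AS1, which was at 0.587 FPKM with metformin and 1.11 FPKM in control. PCBP2 was at 32.5, 29.5 and 28.7 FPKM with metformin, against 23.2, 23.4 and 22.2 FPKM in control (log2 fold change 0.38, adjusted p = 0.000874). PTBP1, the main polypyrimidine-tract repressor outside neurons, was at 148, 131 and 130.03 FPKM in the metformin libraries, against 103, 105 and 100.1 FPKM in the control libraries (log2 fold change 0.40, adjusted p = 0.000657). PTBP2, its neural paralog, was low in both groups at 2.5, 2.83 and 3.22 FPKM with metformin, against 1.53, 1.73 and 1.89 FPKM in control (log2 fold change 0.50, adjusted p = 0.00229). PTBP3 differed from both in direction, at 37.2, 39.6 and 38.1 FPKM with metformin, against 58.1, 58.3 and 64.6 FPKM in control (log2 fold change -0.64, adjusted p = 5.13e-05), and the PTBP1 to PTBP3 ratio was 3.57 ± 0.357 with metformin and 1.71 ± 0.141 in control. Over the 24 hnRNP, PCBP and PTBP genes 14 were lower (58.3%, against 44.1% of all genes tested) and 6 higher (25%, near the 28.9% of all genes). The other 4 did not pass, and the median log2 fold change was -0.57. With TMM factors 7 were higher and 14 lower with a median of -0.40, and of all 13039 genes tested 4895 were higher and 4661 lower. The order of the 24 genes shifted, as PTBP1 ranked 2 of 24 with metformin and 7 in control, and HNRNPA2B1 ranked 10 with metformin and 2 in control.

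**Figure D3:**
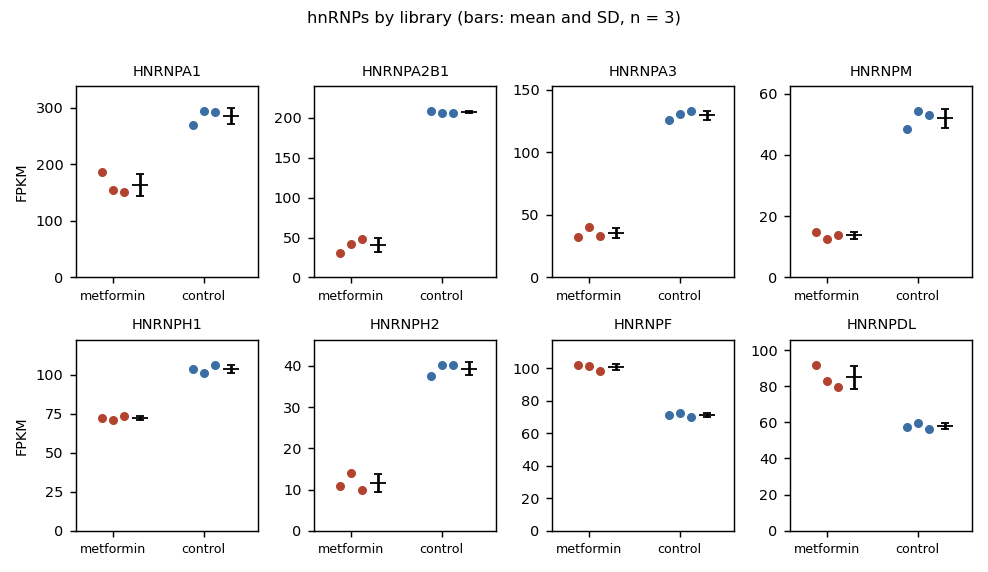
FPKM (y axis, from 0) of 8 hnRNP genes in each metformin and control library (points), with mean and SD (n = 3) beside them. HNRNPA2B1, HNRNPA3, HNRNPM and HNRNPH2 lie lower with metformin, and HNRNPF and HNRNPDL lie higher, each without overlap, as for 76.7% of all genes tested.

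All 6 kinase genes were called, 4 higher (66.7%, against 28.9% of all genes tested) and 2 lower (33.3%, against 44.1%) in the metformin group. CLK1 (GRCh38, chr2:200853009-200864691), a nuclear dual-specificity kinase that phosphorylates SR proteins, was at 25, 23 and 22.4 FPKM in the metformin libraries, against 7.67, 8.44 and 8.15 FPKM in the control libraries. The mean was 2.9-fold that of control (23.5 ± 1.39 FPKM with metformin and 8.08 ± 0.389 FPKM in control; SD, n = 3 each; limma, log2 fold change 1.43, SE 0.0635, adjusted p = 3.26e-06). CLK3 was at 6.49, 5.62 and 6.4 FPKM in the metformin libraries, against 2.12, 1.96 and 1.87 FPKM in the control libraries, a 3.12-fold level (log2 fold change 1.26, SE 0.0757, adjusted p = 8.83e-06 from limma). CLK4, the closest paralog of CLK1, was at 6.98, 6.89 and 6.85 FPKM with metformin, against 3.76, 3.17 and 3.32 FPKM in control, a 2.02-fold level (log2 fold change 0.84, adjusted p = 3.25e-05). None of these genes overlapped between groups, which was so for 76.7% of all genes tested. CLK2 moved the other way, at 21.4, 19.6 and 17.3 FPKM with metformin, against 29.1, 28.5 and 27.5 FPKM in control (log2 fold change -0.53, adjusted p = 0.000597). CLK1 was above CLK2 in every metformin library and below it in every control library, and the CLK2 to CLK3 ratio was 3.16 ± 0.407 with metformin and 14.3 ± 0.518 in control. The cytoplasmic kinases also divided. SRPK1 was at 11, 11.8 and 10.9 FPKM with metformin, against 15, 15 and 16 FPKM in control (log2 fold change -0.42, adjusted p = 0.000427) and SRPK2 at 22.3, 22 and 23.6 FPKM with metformin, against 13.7, 15 and 15.3 FPKM in control (log2 fold change 0.59, adjusted p = 8.97e-05), so that the SRPK1 to SRPK2 ratio was 0.497 ± 0.0398 with metformin and 1.05 ± 0.0444 in control. The summed CLK1 to CLK4 level was 56 ± 3.55 FPKM with metformin and 41.8 ± 0.973 FPKM in control, which was 31.6%, 28.5% and 25.3% of the summed SR and TRA2 level in the metformin libraries and 11.0%, 10.5% and 9.95% in the control libraries. CLK transcripts with retained introns are known to be held in the nucleus, and the FPKM values do not show which CLK transcripts were counted.

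**Figure D4:**
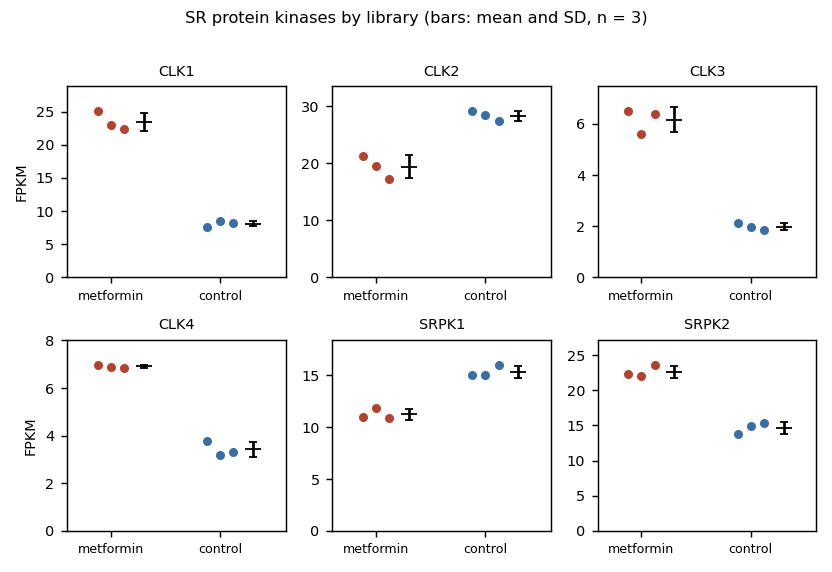
FPKM (y axis, from 0) of the 4 CLK and 2 SRPK genes in each metformin and control library (points), with mean and SD (n = 3) beside them. CLK1, CLK3, CLK4 and SRPK2 lie higher with metformin and CLK2 and SRPK1 lower, with no overlap in any of the 6, as for 76.7% of all genes tested.

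Of the 3 genes for proteins of the 3' splice site, U2AF2 and SF3B1 were tested and neither passed. U2AF2, which binds the polypyrimidine tract, was at 52, 50.4 and 56.5 FPKM with metformin, against 58.1, 53.2 and 50.01 FPKM in control (95% interval -0.19 to 0.14, adjusted p = 0.8 from limma). SF3B1, the branch-point subunit of the U2 snRNP that is mutated in several cancers, was at 48.1, 44.2 and 45.5 FPKM with metformin, against 41.1, 40.8 and 44.1 FPKM in control and did not pass (log2 fold change 0.13, adjusted p = 0.0686), but was called higher with a log2 fold change of 0.30 with TMM factors and 0.28 when scaled by the median of ratios. U2AF1, which reads the AG of the splice site, had a mean under 1 FPKM in both groups and was not tested. It held 28, 39 and 17 fragments with metformin, against 41, 42 and 41 in control. A further ID on chromosome 21 (GRCh38, positions 6484623 to 6499248), which the annotation lists as an artifact and a copy of U2AF1, held 132, 145 and 134 fragments with metformin, against 138, 142 and 115 in control. How reads were divided between these near-identical copies was not tested, and the level of U2AF1 is uncertain.

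The remaining regulators were mostly not called. ESRP1, an epithelial splicing regulator, was at 2.17, 2.76 and 1.95 FPKM with metformin, against 3.47, 3.59 and 4.01 FPKM in control (log2 fold change -0.52, adjusted p = 0.00287), while its more abundant paralog ESRP2 was at 13.1, 11.1 and 10.2 FPKM with metformin, against 13.8, 12.8 and 12.3 FPKM in control and did not pass (log2 fold change -0.17, adjusted p = 0.123). RBM5, a regulator of apoptotic genes, was at 4.78, 5.01 and 4.62 FPKM with metformin, against 5.15, 5.24 and 5.18 FPKM in control (adjusted p = 0.176). RBM39, a relative of U2AF2 that aryl sulfonamide drugs degrade, was at 31.9, 34.3 and 36.9 FPKM with metformin, against 33.3, 33.7 and 33.4 FPKM in control (95% interval -0.11 to 0.18, adjusted p = 0.602), and was called higher with TMM factors (log2 fold change 0.20) and by the median of ratios (0.19). MBNL1, a muscleblind protein sequestered by CUG repeats in myotonic dystrophy, was at 7.57, 8.33 and 11.9 FPKM with metformin, against 8.59, 8.8 and 9.99 FPKM in control, with the widest interval of all members that did not pass (95% interval -0.35 to 0.35, adjusted p = 0.993 from limma).

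Paralog balance was examined in 18 pairs as the ratio of their FPKM in each library. The ratio did not overlap between metformin and control libraries in 14 pairs, each with an exact two-sided permutation p of 0.1, the smallest that 3 against 3 libraries allow, and 0.129 adjusted over the 18, so that no pair could pass 0.05. Since the ratios are of genes already tested above, they restate those changes on a relative scale. Differences within families were large for SRSF4 over SRSF6 (0.497 ± 0.0475 with metformin and 0.198 ± 0.0121 in control), HNRNPA1 over HNRNPA2B1 (4.29 ± 1.56 with metformin and 1.38 ± 0.0727 in control) and HNRNPH1 over HNRNPH2 (6.36 ± 1.19 with metformin and 2.64 ± 0.127 in control). Smaller ones were measured for CLK1 over CLK4 (3.4 ± 0.168 with metformin and 2.38 ± 0.318 in control), TRA2A over TRA2B (1.42 ± 0.30 with metformin and 2.0 ± 0.209 in control), SRSF3 over SRSF7 (1.71 ± 0.10 with metformin and 1.24 ± 0.0645 in control), SRSF5 over SRSF6 (0.279 ± 0.0567 with metformin and 0.431 ± 0.0114 in control) and ESRP1 over ESRP2 (0.202 ± 0.0422 with metformin and 0.286 ± 0.0372 in control). The ratios of HNRNPL to HNRNPLL, PTBP1 to PTBP2, PCBP1 to PCBP2 and U2AF1 to U2AF2 overlapped between the groups (exact permutation p of 0.2 to 0.4).

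Promoter sequence was available from RefSeq (GRCh38.p14) for 44 of the 50 genes and not used here for ESRP1, ESRP2, HNRNPA1, RBM39, SRSF2 and TRA2A. Windows from 250 bases before to 50 after the start were searched on both strands. The motifs were the E-box CACGTG, the CRE TGACGTCA, the CRE half-site TGACG, the CCAAT box (its name gives its letters) and the TATA box TATAAA. The E-box was in 10 of the 44 (22.7%), against 10.4% of the 9294 promoters of genes tested and 7.43% of all 27305 in the table. It was in 7 of 23 promoters of genes called lower, 2 of 11 called higher and 1 of 9 not called. The CRE half-site was in 18 (40.9%), against 34.8% and 25.0%, and the CCAAT box in 36.4%, against 36.9% and 35.7%. The full CRE was in 0 of the 44, against 3.43% and 1.98%. The TATA box was in 5 of the 44 (11.4%), against 5.55% and 12%. A match is a description of letters and not of a factor at the site. The 250 bases before the start are shown for SRSF1 and HNRNPA3, which were lower, and CLK1 and CLK4, which were higher, picked after the sequences and values were seen, 5′ to 3′ on the strand of the gene, with matches in capitals.
SRSF1 (chr17:58007247-58007496, minus strand): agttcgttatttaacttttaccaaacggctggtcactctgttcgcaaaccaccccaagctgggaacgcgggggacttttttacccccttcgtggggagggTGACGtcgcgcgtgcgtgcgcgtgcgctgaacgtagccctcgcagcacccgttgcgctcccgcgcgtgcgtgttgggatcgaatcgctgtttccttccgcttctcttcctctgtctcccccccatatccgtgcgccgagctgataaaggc
HNRNPA3 (chr2:177212544-177212793, plus strand): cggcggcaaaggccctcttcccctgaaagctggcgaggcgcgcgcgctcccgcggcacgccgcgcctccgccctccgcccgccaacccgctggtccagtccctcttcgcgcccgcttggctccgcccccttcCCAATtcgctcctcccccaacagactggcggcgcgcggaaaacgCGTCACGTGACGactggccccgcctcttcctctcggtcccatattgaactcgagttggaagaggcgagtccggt
CLK1 (chr2:200864659-200864908, minus strand): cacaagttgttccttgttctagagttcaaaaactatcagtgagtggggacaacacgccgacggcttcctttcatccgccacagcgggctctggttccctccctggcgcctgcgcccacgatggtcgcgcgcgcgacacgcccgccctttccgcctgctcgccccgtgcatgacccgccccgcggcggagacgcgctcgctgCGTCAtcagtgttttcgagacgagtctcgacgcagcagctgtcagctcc
CLK4 (chr5:178627051-178627300, minus strand): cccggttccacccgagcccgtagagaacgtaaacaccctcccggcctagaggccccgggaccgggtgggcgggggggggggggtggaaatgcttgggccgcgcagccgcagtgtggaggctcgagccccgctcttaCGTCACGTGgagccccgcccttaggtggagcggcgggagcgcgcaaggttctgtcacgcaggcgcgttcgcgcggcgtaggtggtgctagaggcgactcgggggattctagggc
SRSF1 and CLK1 each hold a CRE half-site, 150 and 49 bases before the start. HNRNPA3 and CLK4 each hold an E-box, which begins 71 and 111 bases before the start. In CLK4 it shares 2 bases with a CRE half-site. In HNRNPA3 it shares 2 bases with each of the CRE half-sites that begin 74 and 67 bases before the start. The promoters of HNRNPA2B1 and CLK3, which changed more than HNRNPA3 and CLK4, hold no E-box in these 250 bases.

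The 50 genes carry many transcript models that do not yield a full protein. The median share of transcripts annotated as nonsense-mediated decay or retained intron in GENCODE 44 was 41.9% over the 50 genes, with 43 of 50 (86.0%) having any, while for 10879 protein-coding genes tested it was 25.0%, with 70.9% having any. The median was 41.7% for the genes called lower, 40% for those called higher and 64.3% for those not called, so the share was alike in both directions of change. FPKM weighs transcripts through a merged exon length, which for CLK3 was 20443 bases and for SRSF1 3340 bases. As a share of the merged length in GENCODE 44 this was 104% for CLK3, 57.8% for SRSF1 and 59.8% for HNRNPA2B1. The transcript shares above thus describe the GENCODE 44 models and not the transcripts that were counted.

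Other components of splicing were called in shares near those of all genes tested, and the balance of several lists turned with the scaling. Of 156 tested genes in 8 further lists 67 were lower (42.9%, against 44.1% of all genes), 44 higher (28.2%, against 28.9%) and 45 did not pass. They held 14 downregulated DEGs (8.97%, against 10.7%) and 2 upregulated DEGs (1.28%, against 4.88%), with a median log2 fold change of -0.10. With TMM factors 43 of 157 were lower and 66 higher with a median of 0.07. Of all 13039 genes tested with those factors 4661 were lower and 4895 higher, with a median of 0.02. Sm and other snRNP proteins fell in 15 of 19 (78.9%, against 44.1% of all genes), with 1 higher and a median of -0.40 (10 lower and -0.24 with TMM factors). Among those lower were LSM5 (4.71 FPKM with metformin against 10.6 FPKM in control, log2 fold change -1.02), SNRPD1 (log2 fold change -0.93) and SNRPF (log2 fold change -0.71). SF3A and SF3B subunits, which hold the U2 snRNP at the branch point, had 4 lower and 3 higher of 10 (median -0.04, with TMM factors 1 lower, 4 higher and 0.13), and the U4/U6.U5 tri-snRNP and PRP19 complex 8 lower and 6 higher of 23 (median 0.03, with TMM factors 2 lower, 13 higher and 0.19), with log2 fold changes of -0.56 for TXNL4A and 0.52 for SNW1. Of 10 helicases 4 were lower and 1 higher (median -0.10, with TMM factors 3 lower, 3 higher and 0.06), with DDX46, which acts on the U2 snRNP, at 7.3 FPKM with metformin against 20.5 FPKM in control. The other SR-related proteins had 10 higher and 8 lower of 26 tested (median 0.03, with TMM factors 14 higher, 4 lower and 0.19), with log2 fold changes of -1.33 for LUC7L3, a U1-associated factor, and 1.14 for RSRC2.

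Among 38 tested RNA-binding regulators 19 were lower (50%, against 44.1% of all genes), 8 of them as DEGs, and 10 higher (26.3%, against 28.9%; median -0.20, with TMM factors 17 lower, 14 higher and -0.03). ZRANB2, a zinc finger protein of the spliceosome, was at 3.54 FPKM with metformin against 20.8 FPKM in control (log2 fold change -2.27), and the log2 fold change was -1.71 for TAF15, 0.90 for RBM15 and 0.88 for RBM22. Of 16 tested kinases and phosphatases that act on splicing factors 10 were higher (62.5%, against 28.9% of all genes) and 3 lower (18.8%, against 44.1%). Their median was 0.21, and with TMM factors 10 were higher and 2 lower with a median of 0.38. PIM1, a serine/threonine kinase, was at 59.2, 53.3 and 50.8 FPKM in the metformin libraries, against 6.19, 7.68 and 7.39 FPKM in the control libraries (log2 fold change 2.78, adjusted p = 1.35e-06 from limma), and PPP1R10, a regulatory subunit of protein phosphatase 1, was at 3.02 FPKM with metformin against 16.9 FPKM in control (log2 fold change -2.16). Of the 3 tested DYRK kinases, relatives of the CLKs, DYRK1A (log2 fold change 0.75) and DYRK1B (0.68) were higher and DYRK2 (0.01, adjusted p = 0.939 from limma) did not pass. In nonsense-mediated decay and the exon junction complex 6 were lower (42.9%) and 3 higher (21.4%) of 14, again near the shares of all genes (median -0.11, with TMM factors 4 lower, 7 higher and 0.04), with the core junction protein RBM8A at 1.54 FPKM with metformin against 5.37 FPKM in control (log2 fold change -1.32).

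**Figure D5:**
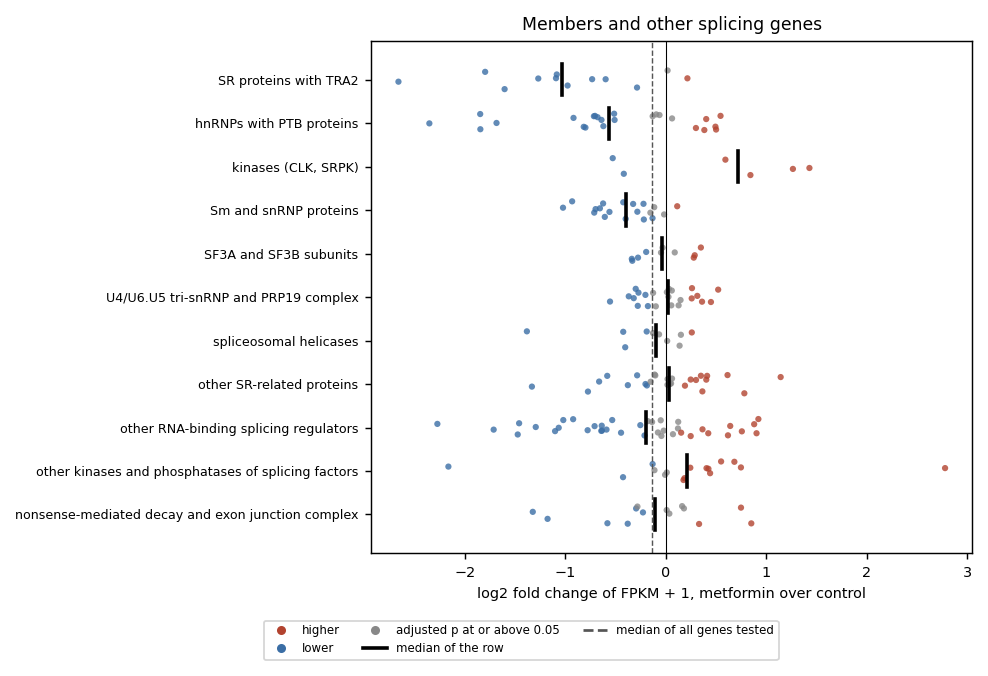
Log2 fold change of FPKM + 1 (metformin over control, x axis) of each tested gene (points, colored by call) in 3 groups of splicing regulators and 8 further lists (y axis), with the median of each row as a black bar and that of all genes tested (-0.14) as a dashed line. The medians were -1.03 for SR proteins with TRA2, -0.57 for hnRNPs with PTB proteins and 0.72 for the kinases.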

How the data were processed

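The authors mapped clean reads to GRCh38 and deposited FPKM values for 35840 Ensembl genes in 6 libraries. They name Cufflinks 2.1.1, and whether that tool made these values was not tested. No aligner is named in the labels or methods. FPKM values move in steps of 1 fragment, which allowed 31771 of the 31777 genes above 0 to be turned back into whole fragments (99.98%, tolerance 1e-08). Per 1 kb of exon a single fragment equals 0.0542 to 0.0582 FPKM, which limits low genes most. No library was a copy of another (chi-square per degree of freedom within groups 4.65 to 14.1).

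Metformin was compared with control in limma 3.58.1 (R 4.3.3, trended variance) on log2(FPKM + 1), keeping genes that averaged 1 FPKM or more in at least 1 group, with two-sided tests, Benjamini-Hochberg adjustment and a threshold of 0.05. Tables and exact permutation tests used Python 3.11.15, pandas 2.3.3 and scipy 1.17.1, and the procedure was tested on simulated data. GENCODE 44 gave names and positions. The members and gene lists were chosen with earlier results of these data known. Values per library are given for up to 4 called genes with the largest change in each class, both genes of a pair and further members, and other lists are named by up to 3 calls with the largest change in each direction. Alternatives were a pseudocount of 0.1, no filter, quantile, TMM and median-of-ratios scaling, voom on rebuilt fragments (at least 10 in 3 libraries) and leaving out each library.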

Additional observations from a re-analysis of the deposited data

How the results depend on the processing

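Of the 49 members tested, 36 kept their call and direction in all 12 alternatives. The numbers called higher and lower were 11 and 27, and over the alternatives 10 to 14 higher and 26 to 29 lower. Of the 24 hnRNP, PCBP and PTBP genes 15 were lower with quantile normalization and with voom, in place of 14. Direction turned only for genes not called in the fit reported. With TMM and median-of-ratios factors the log2 fold changes were 0.08 and 0.06 for HNRNPC, 0.10 and 0.09 for HNRNPL, 0.04 and 0.03 for HNRNPK, 0.15 and 0.13 for U2AF2, 0.05 and 0.04 for RBM5 and 0.15 and 0.14 for MBNL1, and with quantile normalization 0.03 for RBM5 and 0.03 for MBNL1. Those factors set the level of all genes, whose median moved by 0.15 and 0.14 on the log2 scale, while quantile normalization moved it by 0.13 and voom by -0.10. Leaving out each library in turn gave -0.17 to 0.01 for HNRNPL, -0.07 to 0.04 for U2AF2, -0.18 to 0.12 for MBNL1, -0.06 to 0.08 for SRSF4 and -0.01 to 0.09 for RBM39. With voom on fragments U2AF1, untested otherwise apart from the fit with no filter, had a log2 fold change of -0.64 (adjusted p = 0.0567). No paired analysis was possible because the labels number the metformin libraries 1 to 3 and the control libraries 4 to 6.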
